A study of Homo sapiens with 15 samples.

Results

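The genes described are 10 members of the lipogenic programme of SREBP1, chosen by symbol out of 60651 genes in a count table and 23792 in a table of fragments per 1000000 (FPM): SREBF1, ACSS2, ACLY, ACACA, FASN, ELOVL6, SCD, SCD5, FADS1 and FADS2. They were chosen with earlier results in view, because SCD and SREBF1 lay lower in both groups with depleted KIF20A, so every comparison of those groups with their control is given as a description, with no test of a member. All 10 were measured in all 15 libraries and all 10 passed the filters on low values. The libraries carry the label MDA-MB231, a human line of triple-negative breast cancer, grown in DMEM with serum. The study asked what KIF20A, a mitotic kinesin, does in these cells. One experiment has 3 libraries titled CTRL, labelled wild type, and 3 each titled SG1 and SG3, labelled as KIF20A knockdown. The other has 3 titled EV, labelled wild type, and 3 labelled as overexpressing KIF20A, called KIF20A_OE. How the depletion and the overexpression were made, and for how long, the sources used here do not say, nor is it said whether replicates were separate cultures or whether a group is 1 clone. A p-value therefore sets a difference against the scatter of these libraries alone, and that scatter may be technical.

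SREBP1, the product of SREBF1, is made as a membrane protein of the endoplasmic reticulum. When sterols are low, SCAP carries it to the Golgi, proteases release its N-terminal part, and this part enters the nucleus and activates genes of fatty acid synthesis. INSIG1 holds SCAP back, and SREBP2 serves mainly the genes of sterol synthesis. Tumour cells often make fatty acids even when serum supplies them, and the degree of unsaturation of their membranes depends on the desaturases.

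Promoter sequence is shown for SCD, SREBF1, FADS1 and FADS2, the 4 members whose SG3 libraries all lay below all control libraries. It comes from RefSeq on GRCh38.p14, in windows of 250 bases before to 50 after a start site, cut to bases outside any annotated exon. Capitals mark CCAAT, the core bound by NF-Y, and GGGCGG, the core bound by Sp1, on either strand.
SCD, chr10:100346983-100347123, plus strand, 250 to 110 bases before the start: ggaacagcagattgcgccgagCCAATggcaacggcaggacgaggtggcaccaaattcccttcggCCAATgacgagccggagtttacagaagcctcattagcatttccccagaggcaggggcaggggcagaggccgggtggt
SREBF1, chr17:17837003-17837236, minus strand, 250 to 17 bases before the start: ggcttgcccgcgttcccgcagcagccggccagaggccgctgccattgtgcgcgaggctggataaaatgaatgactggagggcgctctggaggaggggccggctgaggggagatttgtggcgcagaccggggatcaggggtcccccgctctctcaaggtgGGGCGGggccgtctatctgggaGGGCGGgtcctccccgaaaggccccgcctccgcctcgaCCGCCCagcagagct
FADS1, chr11:61817198-61817253, minus strand, 250 to 195 bases before the start: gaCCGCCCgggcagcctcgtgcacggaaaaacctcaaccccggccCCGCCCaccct
FADS2, chr11:61816154-61816255, plus strand, 250 to 149 bases before the start: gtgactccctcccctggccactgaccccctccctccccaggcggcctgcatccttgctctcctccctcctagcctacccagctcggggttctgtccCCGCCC
The stretch before SCD holds CCAAT at positions -229 and -186, and that before SREBF1 holds GGGCGG or its complement at -91, -69 and -31. FADS1 and FADS2 are read in opposite directions and across each other, from starts 599 or 800 bases apart, depending on the FADS2 start taken. Windows were found for 9 members, 14 windows in all, and FASN had no entry. The windows of ACLY overlap each other and hold the same sites, and those of FADS2 overlap too. The 14 are therefore not separate sequences, and the sites of ACLY are counted in each of its windows. CCAAT stood in 8 of the 14 windows, from 6 genes, against 34.6% of all 35116 promoter windows. GGGCGG stood in 12 of 14, from all 9 genes, against 45% of all windows. The sterol regulatory element TCACNCCAC and the E-box CACGTG stood in 0 of 14, against 1.13% and 7.26% of all windows. With shares this low, 0 in so few windows cannot show that the members lack either element. All motifs were searched on both strands as exact letters, so these counts describe the letters in the windows and not binding.

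Several facts of the libraries bear on the members. Depletion libraries held 40.9 to 51 M counts (M for 1000000) and the others 16 to 22.2 M fragments. The smallest count of any member in a library was 1565 in the depletion experiment and 360 in the other. KIF20A itself read 154, 171 and 160 counts per 1000000 (CPM) in CTRL, 123, 147 and 91.5 in SG1 and 86.3, 60.8 and 79.1 in SG3, so all 6 depleted libraries lay below all CTRL libraries. On the first principal component of the depletion experiment, CTRL replicate 3 and SG3 replicate 1 lay apart from the other libraries of their groups. They stood at 16 and 23.4, on the side of the SG1 libraries (10.2 to 15.2). The other CTRL and SG3 libraries stood at -22.6 to -16.1. The mitochondrial share of counts was 1.13 to 3.82% and overlapped between groups. In the other experiment KIF20A read 101, 143 and 124 FPM in EV and 1348, 269 and 896 in the libraries labelled KIF20A_OE.

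The libraries labelled KIF20A_OE went against their label as MDA-MB231 in some markers and not in others. Of the 5 genes taken to be present in this line, all were lower there than in EV. Their summed level was 390 to 825 FPM against 4271 to 4815 in EV and 3748 to 4593 CPM in the depletion experiment. The 5 genes taken to be low in it (ESR1, PGR, ERBB2, CDH1 and EPCAM) did not go against the label as a sum. They summed to 53.8 to 56.1 FPM against 79.1 to 109 in EV, and of 4 tested 1 was called higher and 2 lower. CD44, an adhesion receptor abundant in this line, read 642 ± 135 FPM (SD, n = 3) in EV and 0.557 ± 0.591 where KIF20A_OE was the label, and AXL, a receptor kinase, read 962 ± 148 and 0.771 ± 0.0352. CDKN2A, a tumour suppressor gene deleted in MDA-MB-231, was listed at 0 in EV and in all 9 depletion libraries and at 276, 336 and 353 FPM in the libraries labelled KIF20A_OE; it was looked at after earlier values were seen. In what follows, a difference by KIF20A and a difference by the cells of origin cannot be told apart for those 3 libraries, and without them there is no comparison with EV.

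SREBF1 (ENSG00000072310) lies on chromosome 17 from 17810399 to 17837002 on the minus strand of GRCh38. Its level was 202, 154 and 161 CPM in CTRL, 104, 163 and 88.1 in SG1, and 88.4, 125 and 108 in SG3. All SG3 libraries lay below all CTRL libraries, while SG1 replicate 2 lay within the CTRL range. The log2 fold change against CTRL was -0.54 ± 0.21 (SE) for SG1 and -0.69 ± 0.21 for SG3, or 1.46-fold and 1.61-fold lower means. As this is bulk RNA, fewer cells of a type and less RNA per cell cannot be told apart. Without SG1 replicate 2 the SG1 value was -0.84, and without SG1 replicate 3 it was -0.37. The exons of SREBF1 share 556 bases, 6.92% of its exon length, with RAI1 on the opposite strand, and as the sources used here give no strand setting, reads from that stretch cannot be told apart.

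SCD (ENSG00000099194), on chromosome 10 from 100347124 to 100364834 on the plus strand, encodes the stearoyl-CoA desaturase that makes oleate and palmitoleate from saturated acyl-CoA. It read 176, 128 and 269 CPM in CTRL, 66, 132 and 61.2 in SG1, and 87.7, 67.8 and 56.4 in SG3. CTRL replicate 3 was the highest of the 9 libraries, all SG3 libraries lay below all CTRL libraries, and SG1 replicate 2 lay just above the lowest CTRL library. The log2 fold change was -1.14 ± 0.32 for SG1 and -1.43 ± 0.32 for SG3, 2.21-fold and 2.7-fold lower means. Without CTRL replicate 3 these values were -0.83 and -1.11, and with that library and SG3 replicate 1 both left out they were -0.83 and -1.27. SCD ranked at the 1.18 percentile of all log2 fold changes in SG1 and at the 0.232 percentile in SG3, which describes how it was chosen. CTRL varied widely for SCD, with a coefficient of variation of 37.6%.

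**Figure D1:**
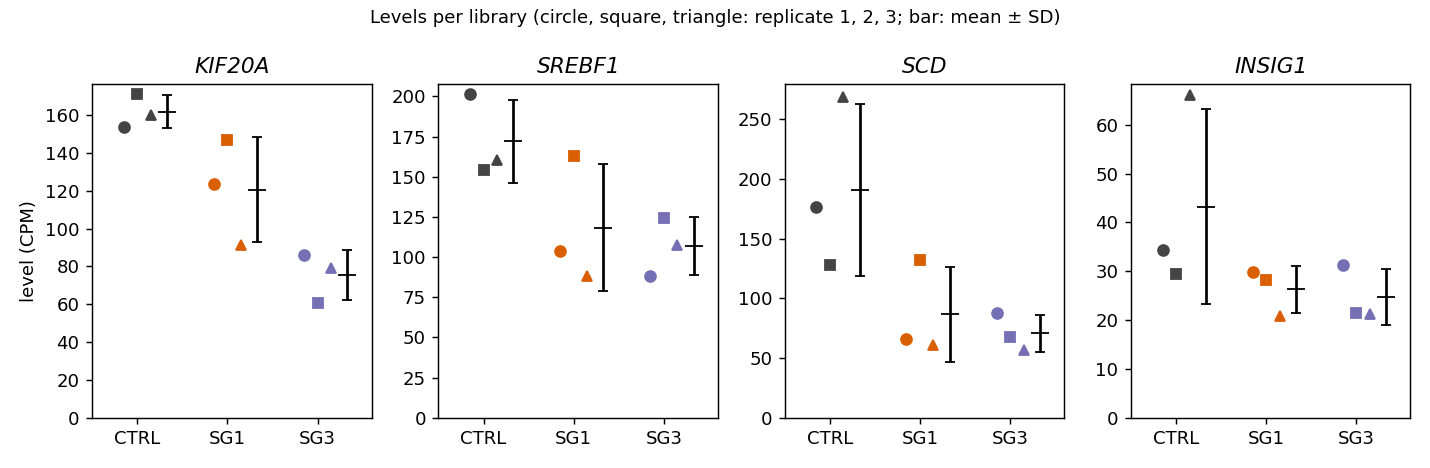
Levels in CPM (vertical axes, from 0) of KIF20A, SREBF1, SCD and INSIG1 in the 3 CTRL, 3 SG1 and 3 SG3 libraries; circle, square and triangle are replicates 1, 2 and 3, and the bar beside them is the mean ± SD. SCD and INSIG1 were both highest in CTRL replicate 3, at 269 and 66.1 CPM, and SG1 replicate 2 was the highest SG1 library for KIF20A, SREBF1 and SCD.

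The other 8 members did not follow SCD as a block. FADS1 and FADS2 encode the delta-5 and delta-6 desaturases that, with elongases, build long polyunsaturated fatty acids. FADS2 (chromosome 11, 61792980 to 61867354, plus strand) read 112, 92.8 and 119 CPM in CTRL, 90.2, 88.5 and 65.5 in SG1 and 78.4, 91.2 and 78.2 in SG3. FADS1 (chromosome 11, 61799625 to 61829318, minus strand) read 148, 126 and 141 in CTRL, 122, 119 and 98 in SG1 and 122, 121 and 113 in SG3. For both genes all 6 depleted libraries lay below all 3 CTRL libraries, though the gap for FADS2 was narrow. The log2 fold changes were -0.41 ± 0.15 and -0.38 ± 0.15 for FADS2 in SG1 and SG3, and -0.29 ± 0.13 and -0.22 ± 0.13 for FADS1. Without SG1 replicate 3 the SG1 values were -0.27 and -0.20, and with CTRL replicate 3 and SG3 replicate 1 both left out FADS2 in SG3 was -0.25. The annotation gives the pair 490 shared exon bases on opposite strands, 4.79% of the exon length of FADS1, where their reads cannot be told apart.

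For the enzymes of carbon supply and chain synthesis, and for SCD5, each depleted group overlapped CTRL. FASN, the fatty acid synthase that makes palmitate, read 482, 397 and 374 CPM in CTRL, 270, 416 and 357 in SG1 and 308, 379 and 432 in SG3. ACLY, which makes cytosolic acetyl-CoA from citrate, read 347 to 414 in CTRL, 346 to 370 in SG1 and 331 to 425 in SG3. The log2 fold changes were -0.27 ± 0.18 and -0.16 ± 0.18 for FASN and -0.10 ± 0.14 and 0.03 ± 0.14 for ACLY in SG1 and SG3. ACACA, the acetyl-CoA carboxylase that commits acetyl-CoA to synthesis, read 72.3 to 92.3 CPM in CTRL and 69.6 to 91.4 over the 6 depleted libraries. ACSS2, which makes acetyl-CoA from acetate, read 48.1 to 55.1 in CTRL, 41 to 51.2 in SG1 and 51.3 to 54.1 in SG3. ELOVL6, which lengthens palmitate to stearate, read 225 to 284 CPM in CTRL, 264 to 321 in SG1 and 207 to 246 in SG3. SCD5, the second stearoyl-CoA desaturase of primates, read 36.3 to 42 CPM in CTRL and 37.5 to 44.1 in the depleted libraries, which overlap, and its log2 fold changes were 0.01 ± 0.13 and 0.05 ± 0.13.

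**Figure D2:**
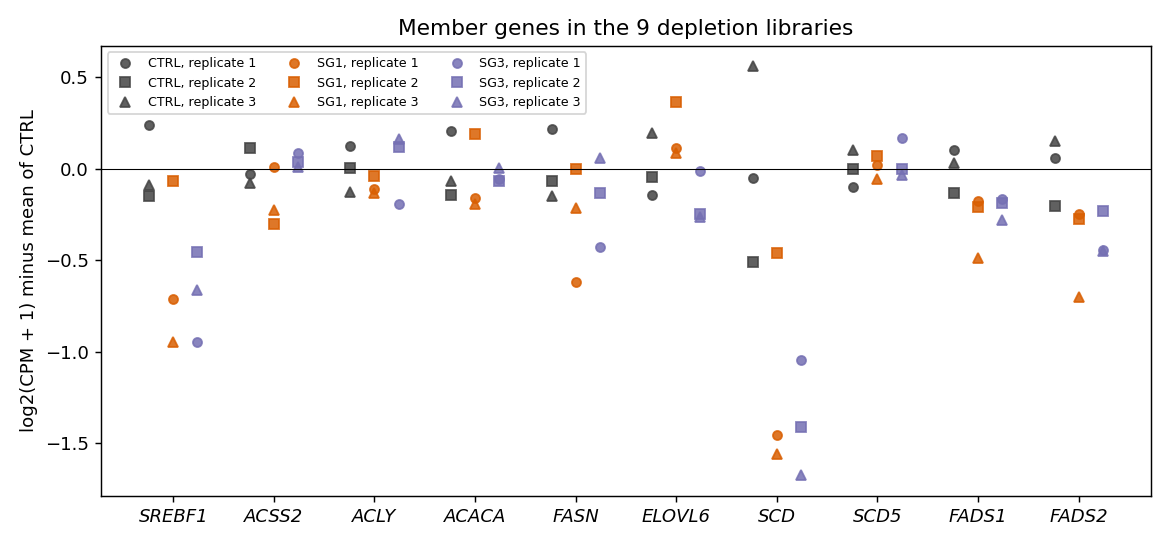
Each member (horizontal axis, ordered by role) in the 9 depletion libraries, as log2(CPM + 1) minus the CTRL mean of that gene (vertical axis); colours are groups and shapes are replicates. SCD and SREBF1 spread furthest below 0, FADS1 and FADS2 lie lower by less, and ACLY, ACACA and SCD5 stay close to 0.

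Counted together, 8 of 10 members had a negative log2 fold change in SG1 and 7 of 10 in SG3, with medians of -0.22 and -0.17, against 50.3% and 53.3% of the 16786 genes tested and medians of -0.00191 and -0.01. Groups did not overlap, with the depleted group lower, for 2 members in SG1 (FADS1 and FADS2), where 7.21% of all genes did the same, and for 4 in SG3 (SCD, SREBF1, FADS1 and FADS2), where 2.38% did. All 6 depleted libraries lay below all CTRL libraries for 2 members, FADS1 and FADS2, and for 0.441% of all genes. These contrasts chose the members, so nothing is read from these shares. Across all genes, the edgeR quasi-likelihood test called 0 genes (0%) at an adjusted p under 0.05 in SG1 against CTRL and 0 (0%) in SG3 against CTRL. At an unadjusted p under 0.05 there were 764 and 195 genes, and DESeq2 called 3 and 4.

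SG1 and SG3 were compared with each other, a contrast the choice of members did not use. The edgeR quasi-likelihood test called 0 of 10 members, and 0 of 16786 genes (0%), at an adjusted p under 0.05, and DESeq2 called 0 members and 5 genes. At an unadjusted p under 0.05 there was 1 member, ELOVL6, against 4.79% of all genes (804). ELOVL6 read 269, 321 and 264 CPM in SG1 and 246, 210 and 207 in SG3, without overlap. How many of all genes did the same was not counted. Its log2 difference was 0.36 ± 0.14, with an adjusted p of 0.863 in edgeR. With CTRL replicate 3 and SG3 replicate 1 both left out, this difference was 0.42 with an edgeR adjusted p of 0.0248. In that fit 1741 genes were called. Both libraries lay on the side of SG1 on the first principal component, so leaving them out sets SG1 and SG3 apart by choice. Nothing is read from that p. SCD differed by 0.29 ± 0.31 between the depleted groups (edgeR adjusted p = 0.881) and SREBF1 by 0.15 ± 0.21 (adjusted p = 0.908), less than the spread between replicates, though a p above the threshold does not show that the groups are alike.

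Genes nearest to SCD and SREBF1 in profile were found by the root mean square difference of centred log2(CPM + 1) levels over the 9 depletion libraries, among 9325 genes. Those nearest to SCD were INSIG1 (0.40), KIF20A (0.47), ABCA1 (0.47), SREBF1 (0.48) and MYLIP (0.49), where SCD itself varied by 0.73 about its mean. ABCA1 exports cholesterol and MYLIP marks the LDL receptor for degradation. FADS2 ranked 10 and FADS1 ranked 60 of the 9325 genes for SCD, while FASN ranked 985 and ACLY 5631. Those nearest to SREBF1 were GATA3 (0.20), MYLIP (0.21), PKP3 (0.22), FADS2 (0.24) and PRICKLE1 (0.25), where SREBF1 varied by 0.40. FASN ranked 50 and SCD 6773 for SREBF1; the measure counts the size of the swing as well as its shape. These likenesses rest on 9 libraries, all of them from the groups used in the choice, and are descriptions.

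INSIG1 was the lowest of the 14 SREBP regulators when SG1 and SG3 were averaged and set against CTRL, at a log2 fold change of -0.76 ± 0.22. It read 34.3, 29.4 and 66.1 CPM in CTRL, 29.9, 28.2 and 20.8 in SG1 and 31.3, 21.4 and 21.3 in SG3, so its CTRL mean rests largely on replicate 3. The highest regulator was MBTPS2, the protease of the second cleavage, at 0.16 ± 0.14. SREBF2, looked at after values were seen, read 103 to 111 CPM in CTRL. It read 81.6 to 93.9 in SG1 and 83.6 to 91.9 in SG3, all below CTRL, as did 0.441% of all genes. Over the 22 genes of the sterol arm, 20 had negative values in SG1 and 21 in SG3, with medians of -0.23 and -0.17. Their range in the mean contrast, among genes of at least 5 CPM, ran from PMVK, a kinase of mevalonate synthesis, at -0.42 ± 0.24 to SC5D, a late sterol desaturase, at 0.04 ± 0.17. The fatty acid use list went the other way, with 14 of 19 positive in each group and medians of 0.12 and 0.12. Glycerolipid assembly did so in similar shares, with 11 of 15 positive in SG1 and 10 of 15 in SG3. PDK4, a kinase that turns cells from glucose towards fatty acid oxidation, read 1.1, 3.12 and 2.56 CPM in CTRL, 6.15, 8.6 and 7.45 in SG1 and 8.27, 6.47 and 5.83 in SG3, a log2 fold change of 1.65 ± 0.29 in the mean contrast. ECI1, an isomerase of beta oxidation, was lowest on that list at -0.22 ± 0.18.

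The remaining lists had medians smaller in size. Elongation and fatty acid supply had medians of -0.02 in SG1 and -0.08 in SG3 over 23 genes, of which 12 and 16 were negative. With SG1 and SG3 averaged against CTRL, its genes of at least 5 CPM ran from MID1IP1, an activator of ACACA, at -0.43 ± 0.14 to ACSL5, an acyl-CoA synthetase, at 0.19 ± 0.13. MID1IP1 read 69.5 to 85.2 CPM in CTRL against 42.7 to 68.4 in SG1 and 54.3 to 67.7 in SG3, without overlap. Glycerolipid assembly had medians of 0.08 in SG1 and 0.08 in SG3 over 15 genes. In the averaged contrast its genes of at least 5 CPM ran from AGPAT1 at -0.30 ± 0.31 to AGPAT4 at 0.17 ± 0.16, a pair of acyltransferases. The regulators had 9 of 14 values negative in each group. Their medians were -0.05 in SG1 and -0.02 in SG3. With libraries scaled by their totals the SG3 median was 0.02, with 5 of 14 negative. Adipocyte markers summed to 5.65 to 7.79 CPM in CTRL, 2.51 to 4.24 in SG1 and 4.15 to 5.94 in SG3, with ADIPOQ at 0 in all 9 libraries and 3 of the 7 markers at 0 throughout CTRL. Leukocyte markers summed to at most 0.221 CPM.

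**Figure D3:**
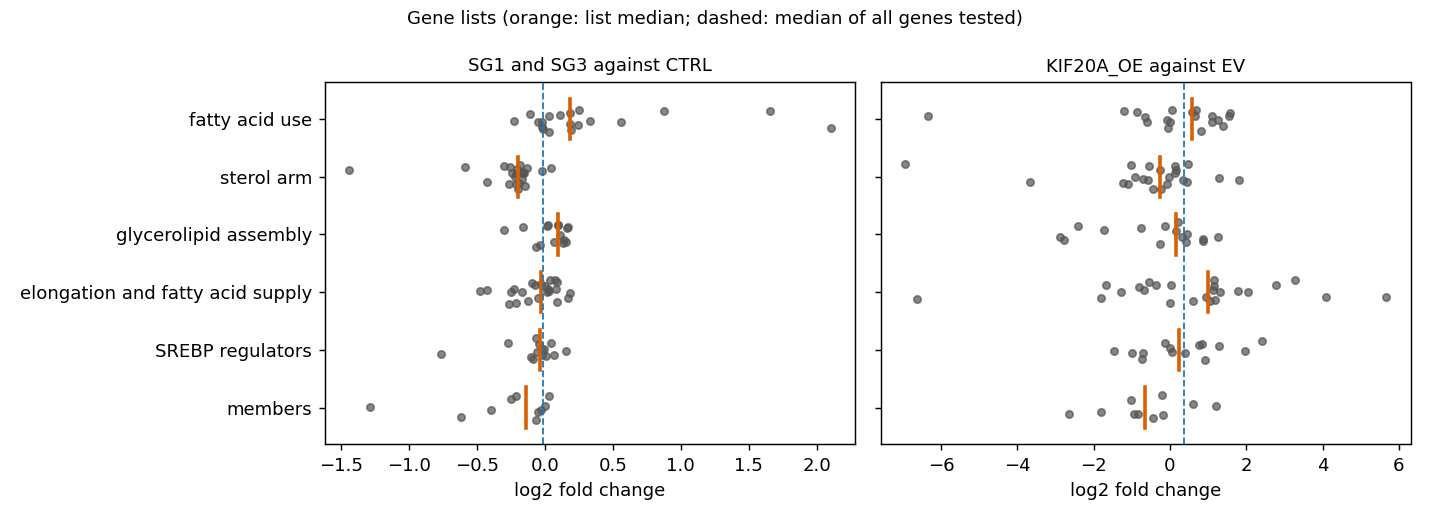
Log2 fold changes of the members and of 5 gene lists (rows), with a point for each gene, for the average of SG1 and SG3 against CTRL (left) and in the libraries labelled KIF20A_OE against EV (right); orange bars are list medians and the dashed line is the median of all genes. On the left the sterol arm lies below 0 for 21 of 22 genes; on the right the members' median is -0.64 while that of all genes is 0.37.

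The libraries labelled KIF20A_OE were compared with EV by limma on log2(FPM + 1). The stated choice of members used the depletion libraries and not these, though earlier results of these data were known when it was made. Of the 10 members, 2 rose (FASN and SCD) and 5 fell (FADS2, SREBF1, SCD5, FADS1 and ACSS2) at an adjusted p under 0.05. Over all 15265 genes 46.2% were called higher and 23.4% lower, so to be called at all was common, and most of the members called went against the commoner direction. The members' median was -0.64 against 0.37 for all genes. Scaling by TMM moved the median of all genes to 0.04 and the split of all calls from 7048 higher and 3573 lower to 5212 and 4944, and among the members it gave 1 higher and 8 lower.

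SREBF1 read 134, 108 and 137 FPM in EV and 49.3, 30.7 and 28.8 in the libraries labelled KIF20A_OE, without overlap. The share of all genes without overlap was not counted for this comparison, so nothing is read from a lack of overlap here or below. Its log2 fold change was -1.80 ± 0.21, a 3.48-fold lower mean (limma adjusted p = 9.54e-05). FADS2 read 182, 308 and 259 FPM in EV and 38.6, 34 and 42.6 in the libraries labelled KIF20A_OE. With a log2 fold change of -2.64 ± 0.20 (limma adjusted p = 6.58e-06), a 6.5-fold lower mean, it had the largest difference of the 10 members. FADS1, its neighbour on the opposite strand, read 233, 372 and 288 FPM in EV against 191, 118 and 156, also without overlap, a log2 fold change of -0.94 ± 0.22 (limma adjusted p = 0.00457).

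Neighbours of this pair on chromosome 11 were looked at after their values were seen. FADS3, another gene of the cluster, fell by 0.82 on the log2 scale (limma adjusted p = 0.00445). FEN1, whose exons share 49 bases with FADS2, had a log2 fold change of 0.44 (adjusted p = 0.0794 in limma), and TMEM258 and MYRF had 0.28 and -0.31 (limma adjusted p = 0.0758 and 0.224). With TMM scaling TMEM258 turned to -0.07 and MYRF passed at -0.65.

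SCD5 and ACSS2 also fell. SCD5 read 44.4, 49 and 62.4 FPM in EV against 25.9, 16.2 and 36.5, a log2 fold change of -1.02 ± 0.27 (limma adjusted p = 0.00982). ACSS2 read 41.7, 70.9 and 42.3 FPM in EV against 27, 25.7 and 29.5, a log2 fold change of -0.85 ± 0.21 (limma adjusted p = 0.0069). Neither gene's groups overlapped, a trait whose share over all genes was not counted here. EV replicate 2 was the high library for ACSS2.

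FASN rose in all 3 libraries labelled KIF20A_OE. It read 340, 452 and 407 FPM in EV against 739, 1047 and 996, a log2 fold change of 1.21 ± 0.17 and a 2.32-fold higher mean (limma adjusted p = 0.000261). With TMM scaling its value was 0.85. SCD read 552, 893 and 648 FPM in EV against 887, 1054 and 1219, and the highest EV library lay above the lowest of the other group. Its log2 fold change of 0.61 ± 0.19 (limma adjusted p = 0.0204) was near the middle of all genes, at the 58.9 percentile. The call ended with TMM scaling (0.26, limma adjusted p = 0.261), with edgeR on whole fragments (0.23, adjusted p = 0.345), and without EV replicate 1, KIF20A_OE replicate 2 or KIF20A_OE replicate 3 (limma adjusted p = 0.0618, 0.0619 and 0.0866).

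ACLY, ACACA and ELOVL6 did not pass. ACLY read 411, 537 and 491 FPM in EV against 396, 409 and 442, a log2 fold change of -0.20 ± 0.13 (limma adjusted p = 0.196). ACACA read 83.8, 100.5 and 106 against 76.7, 85.4 and 90.7 (-0.19 ± 0.13, limma adjusted p = 0.226). ELOVL6 read 64.1, 85 and 107 against 52.3, 76.1 and 57.8 (-0.44 ± 0.21, limma adjusted p = 0.0939). All 3 overlapped between groups, and all 3 were called lower under TMM scaling, at -0.55, -0.54 and -0.79 (limma adjusted p = 0.00449, 0.00512 and 0.00752). ELOVL6 was also called lower without EV replicate 1 or without KIF20A_OE replicate 2, at -0.63 and -0.59.

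**Figure D4:**
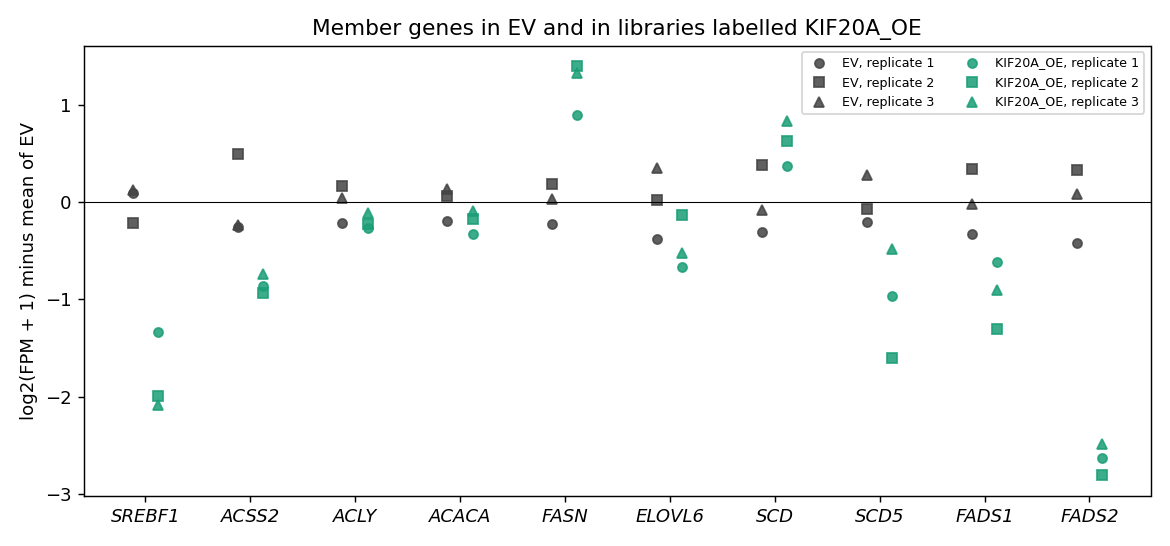
Each member (horizontal axis, ordered by role) in the 3 EV libraries and the 3 libraries labelled KIF20A_OE, as log2(FPM + 1) minus the EV mean of that gene (vertical axis); shapes are replicates. FASN and SCD lie above 0 in the libraries labelled KIF20A_OE, FADS2 lies lowest and SREBF1 next, and ACLY and ACACA lie just below 0.

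The lists of pathway genes around the members are read against the 46.2% of all genes called higher and the 23.4% called lower. Of 14 SREBP regulators 6 rose and 4 fell, shares close to those of all genes, with a median of 0.23 that turned to -0.12 under TMM scaling. MLXIPL, a transcription factor that responds to carbohydrate, read 1.99 ± 0.73 FPM in EV and 15.2 ± 5.03 in the libraries labelled KIF20A_OE (log2 fold change 2.41 ± 0.30, limma adjusted p = 0.000131), and NR1H2, the oxysterol receptor LXR beta, fell by 1.48 (limma adjusted p = 4.98e-05). INSIG1 and SREBF2 were looked at as the partners of SREBF1 after values were seen: INSIG1 fell by 0.73 (limma adjusted p = 0.00558), and SREBF2 had a log2 fold change of -0.14 (limma adjusted p = 0.383), which passed at -0.49 under TMM scaling. Of 22 genes of the sterol arm 3 rose and 9 fell, with a median of -0.25 (2 and 11 under TMM scaling). SQLE, a squalene epoxidase, rose by 1.81 ± 0.26 (limma adjusted p = 0.000285).

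Elongation and fatty acid supply had 13 genes higher and 7 lower of 24, with a median of 1.01 (0.66 under TMM scaling). ELOVL4, an elongase for very long chains, was listed at 0 in EV and in the 9 depletion libraries and at 50.3 ± 7.06 FPM in the libraries labelled KIF20A_OE. ACSL5 fell from 123 ± 27.9 to 0.245 ± 0.168 FPM (limma adjusted p = 8.99e-08). Of 15 glycerolipid genes 4 rose and 5 fell, against 46.2% and 23.4% of all genes, with a median of 0.16; under TMM scaling 2 rose and 7 fell and the median turned to -0.19. GPAM, a mitochondrial acyltransferase that starts triglyceride synthesis, rose by 1.26 ± 0.15 (limma adjusted p = 0.00012), and LPIN2, a phosphatidate phosphatase, fell by 2.88 (limma adjusted p = 1.89e-05). Of 19 fatty acid use genes 10 rose and 4 fell, near the 46.2% and 23.4% of all genes (7 and 7 under TMM scaling), from ANGPTL4, an inhibitor of lipoprotein lipase, at 148 ± 93 against 0.672 ± 0.45 FPM to SLC25A20, the carnitine carrier, at 7.97 ± 3.35 against 25.2 ± 7.74 FPM. Adipocyte markers, 2 of 7 of them listed, summed to 0.193 to 1 FPM in EV and 4.96 to 6.57 in the libraries labelled KIF20A_OE, and leukocyte markers to at most 0.667 and 2.78 to 3.19 FPM; their part in these differences was not tested.

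Levels of different members were set per kilobase of exon, counting every base in any annotated exon of the gene. That length ran from 4.29 kb for SCD5 to 13 kb for ACACA and can exceed the RNA present. Genes with many alternative exons then read lower, so the orders given here depend on this choice of length. In CTRL the order was ACLY at 72.9 ± 6.47 CPM per kb, FASN at 44.6 ± 6.08, SCD at 35.6 ± 13.4, ELOVL6 at 34.3 ± 4.22, SREBF1 at 21.4 ± 3.22, FADS1 at 13.5 ± 1.1, FADS2 at 9.78 ± 1.23, ACSS2 at 9.47 ± 0.675, SCD5 at 9.12 ± 0.656 and ACACA at 6.17 ± 0.816 (SD, n = 3). The libraries of SCD overlapped those of FASN, ELOVL6 and SREBF1, and FADS2, ACSS2 and SCD5 overlapped one another. In SG1 and SG3 the mean of SCD was 16.1 ± 7.42 and 13.2 ± 2.95 CPM per kb, below ELOVL6 at 39 ± 4.3 and 30.3 ± 3.03 in all 6 libraries.

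Per kilobase the EV libraries had SCD highest of the members at 130 ± 32.8 FPM per kb, followed by ACLY at 91.9 ± 12.2, whose highest library reached the lowest of SCD, and FASN at 42.7 ± 6.02. EV and CTRL are both labelled wild type MDA-MB231, but their tables were scaled separately and no test is made between them. FADS1 at 29.1 ± 6.83 and FADS2 at 22.6 ± 5.76 came next in EV, then SREBF1 at 15.7 ± 1.99, SCD5 at 12.1 ± 2.19, ELOVL6 at 11.7 ± 2.92, ACSS2 at 9.59 ± 3.1 and ACACA at 7.44 ± 0.884, and from FASN downwards each overlapped its neighbour in the order. In the libraries labelled KIF20A_OE SCD was again highest, at 196 ± 31, followed by FASN at 99 ± 17.6 and ACLY at 79.7 ± 4.56, and SCD overlapped neither. The other members there were FADS1 at 15.1 ± 3.56, ELOVL6 at 8.51 ± 1.71, ACACA at 6.48 ± 0.543, SCD5 at 6.11 ± 2.36, ACSS2 at 5.09 ± 0.355, SREBF1 at 4.52 ± 1.41 and FADS2 at 3.48 ± 0.389 FPM per kb. By this length, 11 kb for FADS2, that gene had the lowest mean of the 10, though its libraries overlapped those of SREBF1 and SCD5.

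**Figure D5:**
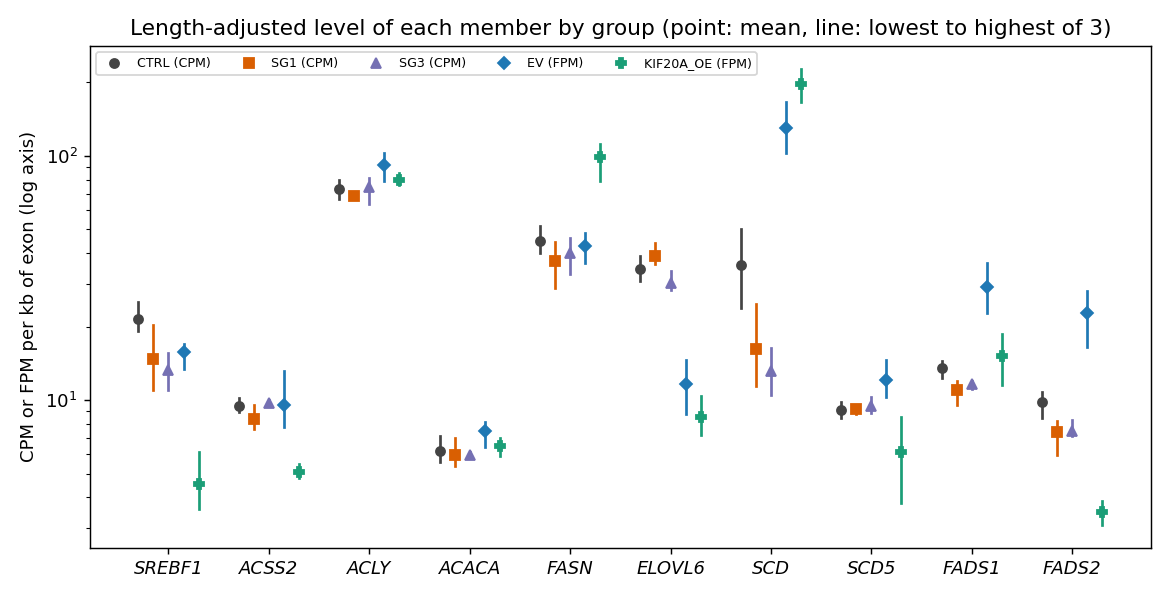
Level per kilobase of exon (vertical axis, log scale) of each member in the 5 groups; points are means and lines run from the lowest to the highest of 3 libraries, in CPM per kb for CTRL, SG1 and SG3 and in FPM per kb for EV and KIF20A_OE. The CPM and FPM values were scaled separately, so ranges of group means are given within each. In CPM per kb SCD spans 13.2 to 35.6, FADS2 7.38 to 9.78 and ACACA 5.95 to 6.17. In FPM per kb SCD spans 130 to 196, FADS2 3.48 to 22.6 and ACACA 6.48 to 7.44.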

How the data were processed

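RNA-seq of 15 libraries was used. The authors deposited unnormalized read counts per gene for the depletion experiment. Per the labels the overexpression values are FPKM. As deposited, however, each column adds up to 1000000, which makes them fragments per 1000000 (FPM, CPM counted in fragments) that take no account of gene length, and 100% of them were whole fragments once divided by the value of 1 (tolerance 0.001). The submitters' processing notes name build hg38, STAR 2.7.3a, Trim Galore 0.6.4, limma 3.50.3, Subread 1.6.3 and featureCounts. The sources used here give neither annotation release nor strand setting.

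Groups came from sample titles. For counts the test was edgeR 4.0.16's quasi-likelihood F test (R 4.3.3, TMM scaling, filterByExpr, 9 libraries in one fit, 16786 genes). FPM values were tested with limma 3.58.1 on log2(FPM + 1), with trend and robust moderation, over 15265 genes averaging 1 FPM or more, a scale that understates changes of low genes. P-values are two-sided and Benjamini-Hochberg adjusted over all genes tested, at a threshold of 0.05. Both tests were also run on simulated counts with the same scatter for every gene and few changed genes. That setting lacks the uneven replicates and broad shifts of these libraries, so it does not vouch for the p-values here. The floor for no count was 3 counts, 0.0588 to 0.0734 CPM and 0.135 to 0.188 FPM per library, for counting error only. CPM levels use TMM library sizes. Coordinates and exon lengths are GENCODE 29 on GRCh38 (96.3% and 97.3% of identifiers matched). Replicates differed by more than sampling noise (chi-square per degree of freedom 10.7 to 118). The members, gene lists and rules were chosen with earlier results of these data known. For each list the highest and lowest gene at a mean of at least 5, and for SCD and SREBF1 the 5 nearest profiles among genes at a mean of at least 10 CPM, were named by rule; 1 gene this rule names is not reported here. Other genes named were chosen after values were seen. Alternatives were other scalings, filters, pseudocounts and tools (DESeq2 1.42.0), a replicate block, and leaving out libraries.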

Additional observations from a re-analysis of the deposited data

How the results depend on the processing

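No value reversed its sign under any alternative where it had been called. Counts of called genes in the depletion experiment were small and unstable. For SG1 against CTRL, 0 genes became 3 with DESeq2, 36 with no filter on low counts, 0 to 1 when single libraries were left out (1 without SG1 replicate 2) and 994 with CTRL replicate 3 and SG3 replicate 1 both left out. For SG3 against CTRL, 0 became 4 with DESeq2 and 5 with no filter. For SG1 against SG3, 0 became 5 with DESeq2, 22 with no filter, 0 to 20 with single libraries left out (20 without SG3 replicate 1) and 1741 with CTRL replicate 3 and SG3 replicate 1 both left out, and members called went from 0 to 1 (ELOVL6). CTRL replicate 3 and SG3 replicate 1 lay on the side of the SG1 libraries on the first principal component, so leaving both out sets SG1 apart by choice. The cause of these shifts was not tested. In the libraries labelled KIF20A_OE against EV, 10621 genes were called, 9583 to 10363 with single libraries left out, and 6 to 7 members; TMM scaling and edgeR each called 9 members. With the replicate number as a block, 10530 genes and 7 members were called there and 0 genes in each depletion contrast. Replicate numbers showed no clear pairing in the depletion experiment. There, correlations of same-numbered deviations ran from -0.22 to 0.43 and those of differently numbered ones from -0.396 to 0.387. In the other experiment same-numbered ones ran from 0.0142 to 0.0577, all above the differently numbered ones (-0.0497 to 0.0093), though all were near 0. The smallest member count in a library was 360 fragments; how depth affects the members was not tested.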
